A study of Homo sapiens with 6 samples.

Results

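The genes of fatty acid synthesis and lipid droplets were taken as a list of 36 names, of which 34 were found by name in a count table of 27394 gene names. CIDEB and G0S2 were not analysed here. The libraries come from Huh7, a human hepatocellular carcinoma cell line, grown in DMEM with fetal bovine serum. A control short hairpin RNA (shRNA) was carried by the cells of 3 libraries, whose genotype is labelled WT, and the other 3 libraries came from CTSV knockdown cells made with a hairpin against that gene. Cathepsin V, its product, is a cysteine protease of lysosomes, and the question was what CTSV does in liver cancer. How many hairpins were used, and whether each line was a clone or a pool, the labels leave unsaid. They also do not state that libraries of 1 group came from separate cultures, so the p-values measure only the spread between libraries, which may be technical.

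Fatty acid synthesis turns cytosolic acetyl-CoA into palmitate, which desaturases and elongases reshape before it is esterified onto glycerol. The triglyceride made in the endoplasmic reticulum is stored in lipid droplets, whose surface carries perilipins and lipases. In the liver this pathway answers to insulin and sterols through the factor encoded by SREBF1 and to glucose through the factor encoded by MLXIPL, known as ChREBP. Hepatocellular carcinoma is known for active lipogenesis.

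CTSV itself was read first as a check of the labels. It stood at 42.3, 44.5 and 41.0 CPM (the usual depth-scaled count, with TMM-normalised library sizes) in control libraries 1 to 3 and at 18.4, 16 and 16.3 CPM in knockdown libraries 1 to 3, a log2 fold change of -1.34 (SE 0.0958, edgeR adjusted p = 7.2e-14). Library totals lay between 16258803 and 18106207 counts. All 10 hepatocyte markers were measured, and their summed level lay between 25757.5 and 26624.8 CPM in controls and between 31915.7 and 33051.4 CPM in knockdown libraries, where 5 of the 10 rose and 1 fell. Of 8 adipocyte markers 2 were measured, with a summed level of 0.542 to 1.56 CPM in controls and 1.75 to 2.48 CPM in knockdown libraries, and FABP4 was at 0 in the controls. Of 8 macrophage and 6 leukocyte markers listed, 1 and 4 were measured, and they summed to at most 0.423 and 0.848 CPM in any library. The 5 of 8 stellate cell markers measured lay at 46.6 to 52.3 and 53.9 to 58.3 CPM. The 3 of 8 endothelial markers measured lay at 18.3 to 23.8 and 19.8 to 22.1 CPM. The 5 of 6 cholangiocyte markers measured lay at 187.6 to 203.6 and 188.1 to 202.7 CPM. Among the markers of these cell types, LUM (0.21, adjusted p = 0.0489) and EPCAM (1.08, adjusted p = 1.26e-08, from 10.2 to 21.7 CPM) rose. SOX9 fell (-0.17, adjusted p = 0.0139). The part of these differences in the results below was not tested. Fewer cells of a type and less RNA per cell cannot be told apart in these bulk libraries.

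Promoter sequence is shown for 6 genes that carry the main contrasts described below. PLIN2, SCD and ELOVL5 fell, and ACACB, MLXIPL and SREBF1 rose. Each line holds the 250 bases upstream of a RefSeq start site on GRCh38.p14, read 5′ to 3′ on the gene's own strand. In each window shown the last 30 bases lie in a GENCODE transcript of the same gene, so part of the window can be transcribed. This held for 35 of the 44 windows of the listed genes. Capitals mark matches on either strand to the E-box CACGTG, the CCAAT box CCAAT, the GC box GGGCGG or the sterol regulatory element TCACNCCAC. No capitalised stretch combines overlapping motifs. RefSeq lists 2 start sites for ACACB, and gene counts do not tell which was used. The windows are PLIN2 chr9:19127493-19127742 (minus strand), SCD chr10:100346983-100347232 (plus strand), ELOVL5 chr6:53348951-53349200 (minus strand), ACACB chr12:109116337-109116586 and chr12:109154429-109154678 (plus strand), MLXIPL chr7:73624523-73624772 (minus strand) and SREBF1 chr17:17836987-17837236 (minus strand).
PLIN2: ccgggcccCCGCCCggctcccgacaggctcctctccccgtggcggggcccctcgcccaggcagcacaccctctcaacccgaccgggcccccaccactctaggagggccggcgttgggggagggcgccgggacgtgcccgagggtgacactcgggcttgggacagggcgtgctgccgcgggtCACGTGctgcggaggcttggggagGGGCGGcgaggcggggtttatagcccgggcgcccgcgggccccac
SCD: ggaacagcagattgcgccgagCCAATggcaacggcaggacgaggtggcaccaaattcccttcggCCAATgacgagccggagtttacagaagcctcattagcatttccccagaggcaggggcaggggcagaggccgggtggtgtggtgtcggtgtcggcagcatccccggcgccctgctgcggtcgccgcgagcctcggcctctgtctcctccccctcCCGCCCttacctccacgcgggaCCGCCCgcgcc
ELOVL5: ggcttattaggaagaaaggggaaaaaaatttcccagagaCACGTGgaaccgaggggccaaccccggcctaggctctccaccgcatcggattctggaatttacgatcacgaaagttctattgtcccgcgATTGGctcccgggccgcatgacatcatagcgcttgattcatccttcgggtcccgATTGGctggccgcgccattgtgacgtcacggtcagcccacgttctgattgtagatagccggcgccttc
ACACB, upstream start: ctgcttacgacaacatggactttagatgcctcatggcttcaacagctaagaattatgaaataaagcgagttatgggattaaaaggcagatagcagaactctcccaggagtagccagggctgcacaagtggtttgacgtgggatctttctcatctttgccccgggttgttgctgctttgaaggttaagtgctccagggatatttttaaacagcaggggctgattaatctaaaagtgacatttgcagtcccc
ACACB, downstream start: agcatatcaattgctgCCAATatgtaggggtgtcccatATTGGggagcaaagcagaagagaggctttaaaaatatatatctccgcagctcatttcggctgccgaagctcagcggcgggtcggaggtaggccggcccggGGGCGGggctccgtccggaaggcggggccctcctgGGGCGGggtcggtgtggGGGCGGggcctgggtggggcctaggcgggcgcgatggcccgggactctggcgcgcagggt
MLXIPL: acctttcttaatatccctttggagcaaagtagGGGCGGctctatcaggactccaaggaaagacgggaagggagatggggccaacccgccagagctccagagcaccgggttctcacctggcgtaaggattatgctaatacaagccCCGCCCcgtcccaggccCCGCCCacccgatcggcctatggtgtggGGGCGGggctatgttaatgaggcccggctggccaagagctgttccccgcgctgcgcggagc
SREBF1: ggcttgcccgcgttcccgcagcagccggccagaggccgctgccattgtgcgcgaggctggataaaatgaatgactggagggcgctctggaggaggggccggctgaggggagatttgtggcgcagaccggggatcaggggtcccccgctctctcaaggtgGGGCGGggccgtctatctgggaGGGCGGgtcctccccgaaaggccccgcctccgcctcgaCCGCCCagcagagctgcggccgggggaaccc

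The PLIN2 window held an E-box that began 69 bases upstream of the start, and the ELOVL5 window an E-box at 211 and CCAAT boxes, read on the opposite strand, at 122 and 68. CCAAT boxes lay 229 and 186 bases upstream of SCD and 234 and 212 bases upstream of the downstream start of ACACB. The MLXIPL and SREBF1 windows held GC boxes only, 4 and 3 of them, and the upstream start of ACACB had no match to the 4 motifs. The set of RefSeq start sites used here held 44 for 29 of the 34 genes. It held none for FASN, LPIN3, DGAT1, DGAT2 and PNPLA3, whose promoters were not searched. Of these 44 windows, 32 held a GC box (72.7%, against 42.6% of 35116 windows of all genes), 18 a CCAAT box (40.9% against 32%), 3 an E-box (6.82% against 6.34%) and 2 a sterol regulatory element (4.55% against 0.883%). Windows of 1 gene can overlap, as those of ACLY do, so the same match can be counted more than once. By gene, 25 of the 29 had a window with a GC box and 14 one with a CCAAT box. The sterol element matches lay in windows of PNPLA2 and CIDEC, and the third E-box in 1 of LPIN2. These matches describe letters only.

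The knockdown libraries had less PLIN2 and less of the desaturase transcripts SCD, FADS1, FADS2 and FADS3, and more of the weakly expressed ACACB, LPIN3 and MLXIPL. Of the 34 genes, 33 passed the filter on low counts, 8 rose and 13 fell, and 12 were not called. Over all 15968 genes tested, 40.3% were called, 18.7% rising and 21.6% falling. Among genes with a mean of 10 CPM or more 53.1% were called, and 21 of the 30 lipid genes at that level were. The 33 genes had a median log2 fold change of 0.03, against 0.02 for all genes tested, and a median size of 0.25 against 0.28. Of the 21 called lipid genes 4, PLIN2, ACACB, LPIN3 and MLXIPL, reached 0.5 on the log2 scale in either direction. Of all called genes 40.4% did. With loess offsets for exon length and GC content, 7 rose and 15 fell, and the share of rises among all called genes went from 46.4% to 32.8%. These offsets moved the log2 fold changes of all genes by a median of -0.07.

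**Figure D1:**
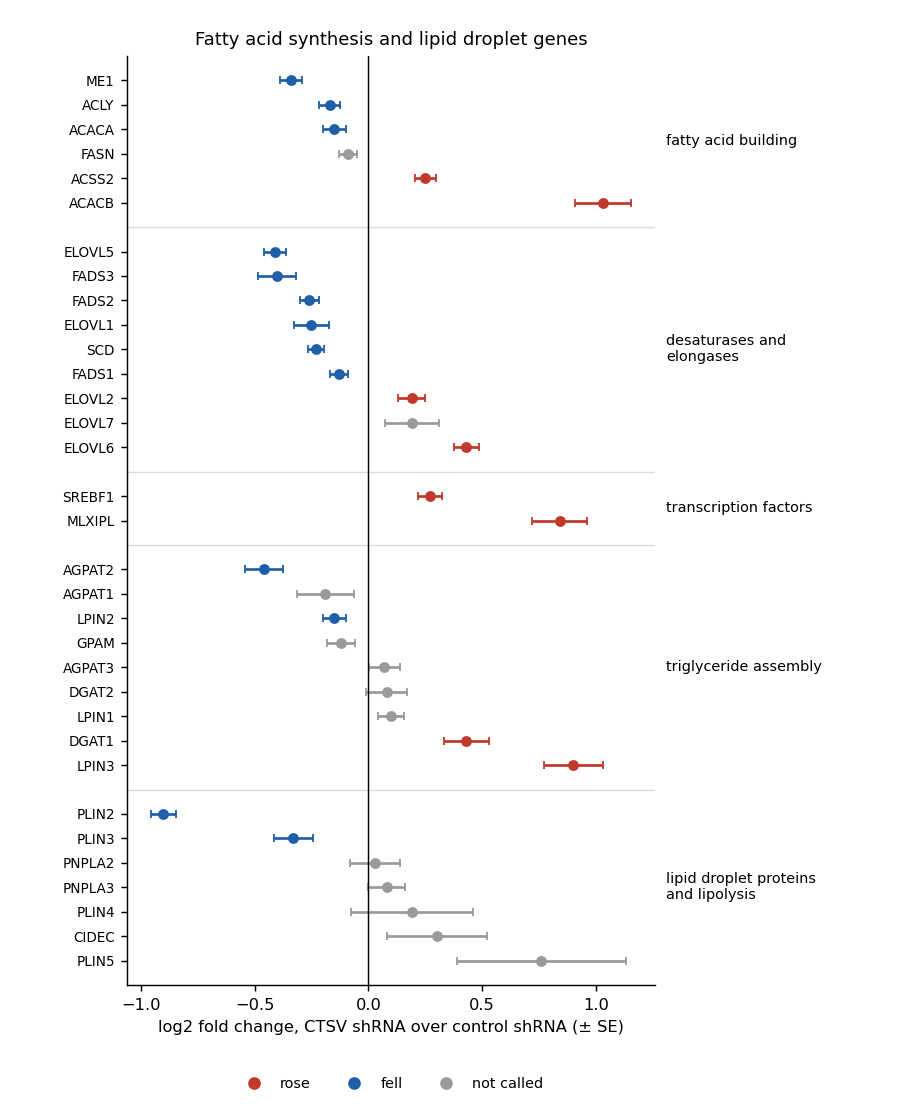
Log2 fold change (CTSV shRNA over control shRNA, horizontal axis) with SE of the 33 lipid genes tested, grouped by role, with red points for genes that rose, blue for genes that fell and grey for genes not called. PLIN2 lies farthest left at -0.90 and ACACB farthest right at 1.03.

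Among the genes that supply and join the carbon units, ACLY, ACACA and ME1 fell and ACSS2 and ACACB rose. Of 6 tested genes in this role 3 fell, 2 rose and FASN was not called. The called share was 83.3%, against 40.3% of all genes tested and 53.1% of those with a mean of 10 CPM or more. ACLY, which cleaves citrate to acetyl-CoA, lay at 381.1, 383.0 and 411.1 CPM in controls and 328.5, 361.5 and 353.8 CPM in knockdown libraries, with a log2 fold change of -0.17 (SE 0.0472, edgeR adjusted p = 0.00362). ACSS2, which makes acetyl-CoA from acetate, went the other way. Its levels of 262.8, 264.5 and 259.5 CPM in controls were all below 307.9, 311.7 and 314.2 CPM in knockdown libraries, a log2 fold change of 0.25 (SE 0.0454, adjusted p = 3.1e-05). The malic enzyme ME1, a source of cytosolic NADPH, was at 263.9, 253.8 and 256.7 CPM in controls and 208.0, 199.6 and 206.2 CPM with the CTSV hairpin. Its log2 fold change of -0.34 (SE 0.0474, adjusted p = 4.15e-07) was the largest fall among the genes of this role.

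The acetyl-CoA carboxylases, which make malonyl-CoA, moved in opposite directions. ACACA, the cytosolic form that feeds synthesis, was at 247.2, 229.5 and 256.3 CPM in controls and 217.0, 223.8 and 220.0 CPM in knockdown libraries. The groups did not overlap, and the log2 fold change was -0.15 (SE 0.0494, adjusted p = 0.0142). It was not called without control replicate 3 (adjusted p = 0.0988) and was -0.29 with length and GC offsets. ACACB, the form at the mitochondrial surface whose malonyl-CoA is known to restrain fatty acid import, was at 11.2, 9.99 and 14.3 CPM in controls and 22.6, 25.3 and 24.8 CPM in knockdown libraries. Each knockdown library exceeded each control, with a log2 fold change of 1.03 (SE 0.124, adjusted p = 1.5e-08), or 2.05-fold.

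FASN, the fatty acid synthase, was at 988.1, 995.9 and 1004.8 CPM in controls and 921.7, 931.6 and 964.4 CPM in knockdown libraries. Although the groups did not overlap, the difference of -0.09 (SE 0.0392) was not called (adjusted p = 0.0818). It was called without a filter on low counts (adjusted p = 0.0398), with all deposited entries kept (0.0226) and with length and GC offsets (0.000807). FASN was then at -0.10, -0.12 and -0.14. The same settings moved the log2 fold changes of all genes by medians of -0.02, -0.03 and -0.07. The authors' deposited table gives FASN an adjusted p of 0.0122, the 1 call among these 33 genes in which that table differs. THRSP, a regulator of lipogenesis, had 0 counts in each control and 3, 0 and 3 counts in the knockdown libraries, below the filter.

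**Figure D2:**
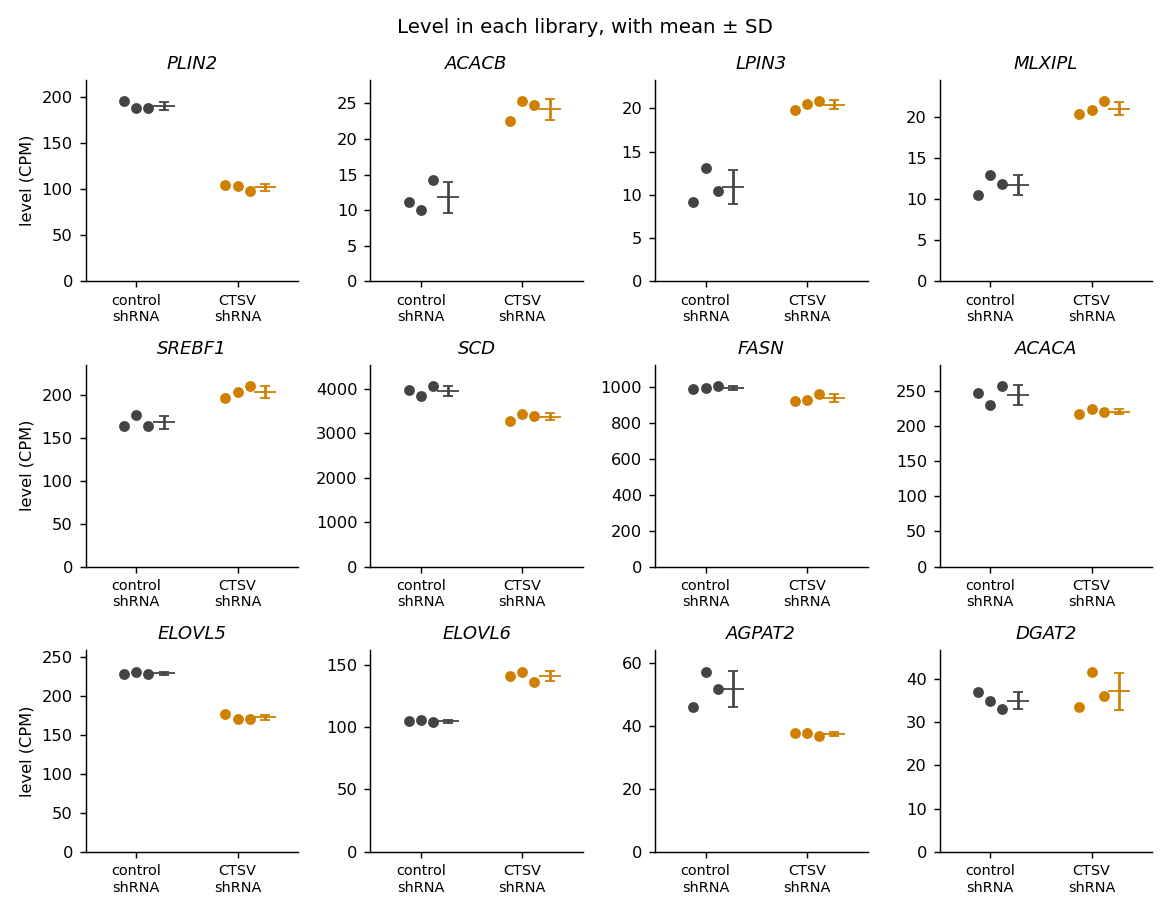
Level in CPM (vertical axes, each from 0) of 12 lipid genes in each library, with small dots for libraries and a bar for mean ± SD (n = 3). The groups are fully apart in 11 panels, and in DGAT2 they overlap. Most genes drawn were called ones. Of the 33 lipid genes tested the groups did not overlap in 25, and this held for 49.2% of all genes tested.

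Desaturases fell together and elongases split. Of 9 tested genes 6 fell, 2 rose and 1 was not called. The called share was 88.9%, against 40.3% of all genes tested and 53.1% of those with a mean of 10 CPM or more. In all 9 the groups did not overlap, which held for 49.2% of all genes tested, whatever their level. SCD, the desaturase that makes oleate and palmitoleate, was the most abundant of the 34 genes. It lay at 3989, 3833 and 4058 CPM in controls and 3288, 3440.1 and 3401 CPM in knockdown libraries, a log2 fold change of -0.23 (SE 0.0341, adjusted p = 9.81e-07). Its processed copy SCDP1 had 2 to 11 counts in any library.

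The polyunsaturated fatty acid desaturases FADS1 and FADS2 and their relative FADS3 stand side by side on chromosome 11 between 61792980 and 61892051 (hg38). FADS1 was at 1034.7, 1004.8 and 1018.8 CPM in controls and 944.2, 928.3 and 918.6 CPM in knockdown libraries, with a log2 fold change of -0.13 (SE 0.0389, adjusted p = 0.0062), which was -0.21 with length and GC offsets. FADS2 was at 816.0, 850.6 and 793.3 CPM against 689.3, 684.6 and 681.3 CPM, with a log2 fold change of -0.26 (SE 0.041, adjusted p = 2.96e-06). FADS3, at 42.2, 42.7 and 49.0 CPM in controls, was at 34.4, 33.9 and 32.8 CPM in knockdown libraries (-0.40, SE 0.0842, adjusted p = 0.000177). In each of the 3 genes every knockdown library was below every control. The annotated exons of FADS1 and FADS2 share 490 bases on opposite strands, and no source used here says whether counting used strand, so these values are uncertain to that extent.

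Among the 5 elongases of the list ELOVL5 and ELOVL6 moved most and in opposite directions. ELOVL5, which extends polyunsaturated fatty acids, was at 227.6, 230.9 and 228.2 CPM in controls and 176.4, 170.4 and 170.0 CPM in knockdown libraries, with a log2 fold change of -0.41 (SE 0.0485, adjusted p = 1.14e-08). ELOVL6, which turns palmitate into stearate, was at 104.6, 105.6 and 103.7 CPM in controls and 141.3, 144.5 and 136.4 CPM in knockdown libraries, a log2 fold change of 0.43 (SE 0.054, adjusted p = 4.49e-08). ELOVL1, an elongase of saturated very long chains, fell from a mean of 58.4 ± 4.11 to 49.3 ± 5.02 CPM (SD, n = 3 each). Its log2 fold change of -0.25 (adjusted p = 0.0111) was not called without control replicate 2 (-0.20, adjusted p = 0.0603) or knockdown replicate 3 (-0.16, adjusted p = 0.135). ELOVL2, which acts on long polyunsaturated chains, rose by 0.19 (adjusted p = 0.0111) from 98.3 ± 7.63 to 112.0 ± 2.75 CPM. That call was lost without control replicate 3 (adjusted p = 0.123) and with length and GC offsets (0.10, adjusted p = 0.137). ELOVL7 was at 14.9 ± 0.782 and 16.9 ± 0.807 CPM and was not called (0.19, adjusted p = 0.217).

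Both transcription factor genes rose, MLXIPL from a low level and SREBF1 by a smaller fold. SREBF1 was at 164.0, 176.4 and 163.8 CPM in controls and 196.5, 203.6 and 209.9 CPM in knockdown libraries, a log2 fold change of 0.27 (SE 0.051, adjusted p = 3.62e-05). MLXIPL was at 10.5, 12.9 and 11.8 CPM in controls and 20.4, 20.8 and 21.9 CPM in knockdown libraries. Its log2 fold change was 0.84 (SE 0.12, adjusted p = 4.74e-07), a level 1.8-fold that of controls. In both genes the groups stood apart. RAI1, on the opposite strand, shares 556 exon bases with SREBF1 (6.92% of its merged exons) and had 870 to 1055 counts in controls and 856 to 898 in knockdown libraries. Gene counts do not separate the SREBF1 isoforms.

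In triglyceride assembly paralogs of 1 family gave different calls, with 2 genes rising, 2 falling and 5 not called of 9 tested. The called share of 44.4% was near the 40.3% over all genes. It was below the 53.1% called among genes with a mean of 10 CPM or more. GPAM, the mitochondrial acyltransferase of the first step, was at 98.5 ± 5.70 and 90.8 ± 2.92 CPM (SD, n = 3 each). Its log2 fold change of -0.12 was not called (adjusted p = 0.119) but was called with length and GC offsets (-0.25, adjusted p = 0.000759), with all deposited entries (-0.15, 0.0484) and without control replicate 1 (-0.17, 0.0488). All genes moved by medians of -0.07, -0.03 and -0.01 under these settings. AGPAT2, one of the enzymes that make phosphatidic acid, fell from 45.9, 57.2 and 51.6 CPM to 37.7, 37.7 and 36.8 CPM, a log2 fold change of -0.46 (SE 0.0828, adjusted p = 2.16e-05). Its relatives AGPAT1 (-0.19, adjusted p = 0.249) and AGPAT3 (0.07, adjusted p = 0.429) were not called. AGPAT1 shares 29.9% of its merged exon bases with the opposite-strand PPT2-EGFL8, which had at most 12 counts in a library.

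The lipins are phosphatidate phosphatases that yield diacylglycerol. LPIN3 was at 9.14, 13.1 and 10.5 CPM in controls and 19.8, 20.5 and 20.8 CPM in knockdown libraries, a log2 fold change of 0.90 (SE 0.129, adjusted p = 4.84e-07) and a 1.87-fold level. LPIN2, the most abundant lipin per exon length, was at 183.3, 186.4 and 177.2 CPM in controls and 161.9, 165.2 and 166.5 CPM in knockdown libraries. Its log2 fold change of -0.15 (SE 0.0501, adjusted p = 0.0169) lost its call when knockdown replicate 1 was left out (adjusted p = 0.0616). LPIN1 was at 100.4 ± 2.28 and 107.6 ± 3.78 CPM (SD, n = 3 each) and was not called (0.10, adjusted p = 0.169). The exons of LPIN3 overlap those of EMILIN3 on the opposite strand over 617 bases, and EMILIN3 was not analysed here.

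Of the acyltransferases that complete triglyceride, DGAT1 rose and DGAT2 did not pass the test. DGAT1 was at 24.4, 24.0 and 20.4 CPM in controls and 29.8, 31.4 and 31.4 CPM in knockdown libraries, a log2 fold change of 0.43 (SE 0.098, adjusted p = 0.000562). It shares 444 exon bases (10.75% of its merged exons) with AC233992.1 on the same strand, which was not analysed here. DGAT2, known for esterifying newly made fatty acids, was at 36.9, 35.0 and 33.0 CPM in controls and 33.4, 41.7 and 36.1 CPM in knockdown libraries. These groups overlapped, and the log2 fold change was 0.08 (SE 0.0902, adjusted p = 0.486). A difference between the responses of the DGAT genes was not tested.

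On the droplet surface PLIN2 and PLIN3 fell, and the other 5 of 7 tested genes were not called. The called share of 28.6% was below the 40.3% over all genes. PLIN2, the main perilipin of hepatocytes, is annotated at 19108375 to 19149290 of chromosome 9 (hg38, minus strand). It was at 195.4, 187.9 and 188.1 CPM in controls and 104.4, 103.9 and 98.1 CPM in knockdown libraries. The knockdown level was 53.6% of the control level, with a log2 fold change of -0.90 (SE 0.053, adjusted p = 3.42e-16), and it kept between -0.87 and -0.92 with any 1 library left out. PLIN3, a widely expressed perilipin that moves from cytosol to droplets, was at 44.7, 46.7 and 39.6 CPM in controls and 34.7, 37.3 and 32.3 CPM in knockdown libraries. The groups did not overlap, and PLIN3 had a log2 fold change of -0.33 (SE 0.0862, adjusted p = 0.00222). PLIN3 shares 502 exon bases (17.85% of its merged exons) with AC027319.1 on the opposite strand, which was not analysed here.

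The other droplet genes were weakly expressed or little different. PLIN5, which links droplets to mitochondria in oxidative tissue, was at 2.02, 0.842 and 1.37 CPM in controls and 2.24, 2.36 and 2.59 CPM in knockdown libraries. Its log2 fold change of 0.76 (SE 0.373) was not called (adjusted p = 0.106) but was called without control replicate 1 (1.11, adjusted p = 0.0427). It shares 21.7% of its merged exon bases with AC011498.4 on the same strand, which had 1 to 6 counts in controls and 11 to 13 in knockdown libraries, so this value is uncertain. PLIN4 was at 3.25, 3.07 and 3.43 CPM in controls and 2.78, 3.09 and 5.17 CPM in knockdown libraries, with knockdown library 3 apart from the other 5 (0.19, adjusted p = 0.615). CIDEC, which fuses droplets, was at 4.32, 4.93 and 3.43 CPM against 4.48, 5.51 and 5.61 CPM (0.30, adjusted p = 0.295). Its counts can be split with the pseudogene CIDECP, which held 129 to 202 counts in controls and 133 to 150 in knockdown libraries, so CIDEC is uncertain. PNPLA2, the adipose triglyceride lipase, had a log2 fold change of 0.03 (SE 0.109, adjusted p = 0.875) around a control mean of 22.1 ± 2.85 CPM. PNPLA3, a droplet lipase known for its link to fatty liver, had 0.08 (SE 0.0815, adjusted p = 0.476) around 39.1 ± 2.08 CPM.

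Scaled by merged exon length, levels of the 34 genes spanned a wide range. SCD stood highest, at 738.5 ± 21.5 CPM per kilobase with the control hairpin and 629.7 ± 14.7 with the CTSV hairpin (SD, n = 3 each), followed in controls by FASN (106.4 ± 0.897), FADS1 (99.7 ± 1.46), ME1 (76.6 ± 1.54), ACLY (75.1 ± 3.22) and FADS2 (74.4 ± 2.62). All but FASN of these fell. THRSP was lowest, at 0 in controls and 0.0984 ± 0.0855 CPM per kilobase in knockdown libraries. Above it lay ACACB (0.817 ± 0.154 in controls and 1.67 ± 0.101 in knockdown libraries), PLIN4 (0.5 ± 0.0275 and 0.566 ± 0.2) and PLIN5 (0.293 ± 0.122 and 0.498 ± 0.0366). MLXIPL and LPIN3, which rose, started from 2.44 ± 0.249 and 2.39 ± 0.435 CPM per kilobase.

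**Figure D3:**
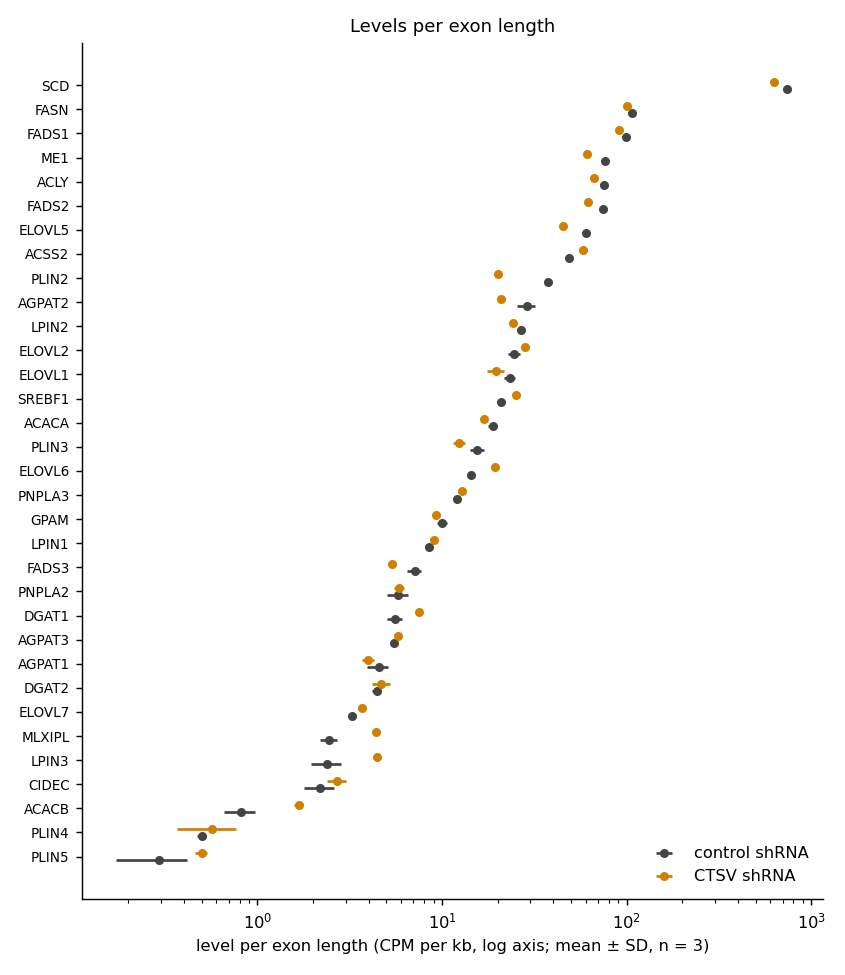
Level per exon length (CPM per kilobase, log axis) of the 33 lipid genes other than THRSP in control and knockdown libraries, as mean ± SD (n = 3), ordered by the control level. SCD is the highest at 738.5 and 629.7, and PLIN5 the lowest of those drawn at 0.293 and 0.498.

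Counted together, the 34 genes took 0.927% to 0.953% of the counts of control libraries and 0.856% to 0.876% of those of knockdown libraries. SCD alone made up 41.3% of the summed control CPM. By role, the sum of the droplet genes in knockdown libraries was 69.7% of the control sum, that of desaturases and elongases 86.9%, of the carbon-joining genes 94.6% and of triglyceride assembly 98.0%. PLIN2 carried the droplet value, since the other 6 droplet genes summed to 96.6% of control, with overlapping groups. The sum of both transcription factor genes was 124.8%. The triglyceride assembly sums overlapped between groups, from 568.0 to 599.8 CPM in controls and from 565.1 to 570.3 CPM in knockdown libraries, and the other 4 role sums did not.

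Within gene families the balance of paralogs differed between the groups, described as the share of each gene in its family's level per exon length. ACACB made up 3.91%, 3.76% and 4.77% of the acetyl-CoA carboxylase level in controls and 8.53%, 9.21% and 9.17% in knockdown libraries. LPIN3 went from a mean of 6.33% ± 1.04 to 11.8% ± 0.260 of the lipin level, and LPIN2 from 71.2% ± 0.377 to 64.1% ± 0.68 (SD, n = 3 each). ELOVL6 made up 11.4% ± 0.221 of the 5 elongases in controls and 16.6% ± 0.284 in knockdown libraries, while ELOVL5 stood at 47.9% ± 1.18 and 39.0% ± 0.611. DGAT1 went from 55.6% ± 1.28 to 61.5% ± 2.14 of the DGAT pair and AGPAT2 from 74.1% ± 1.29 to 68.1% ± 0.818 of the AGPAT genes. PLIN2 held the largest share of the perilipins in both groups, at 69.7% ± 1.57 and 59.9% ± 0.946. The groups did not overlap in these shares, which were not tested. The share of SCD among the desaturases overlapped, at 80.3% ± 0.579 and 79.9% ± 0.531, as did that of PNPLA3 beside PNPLA2, at 67.8% ± 3.83 and 68.5% ± 2.16.

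**Figure D4:**
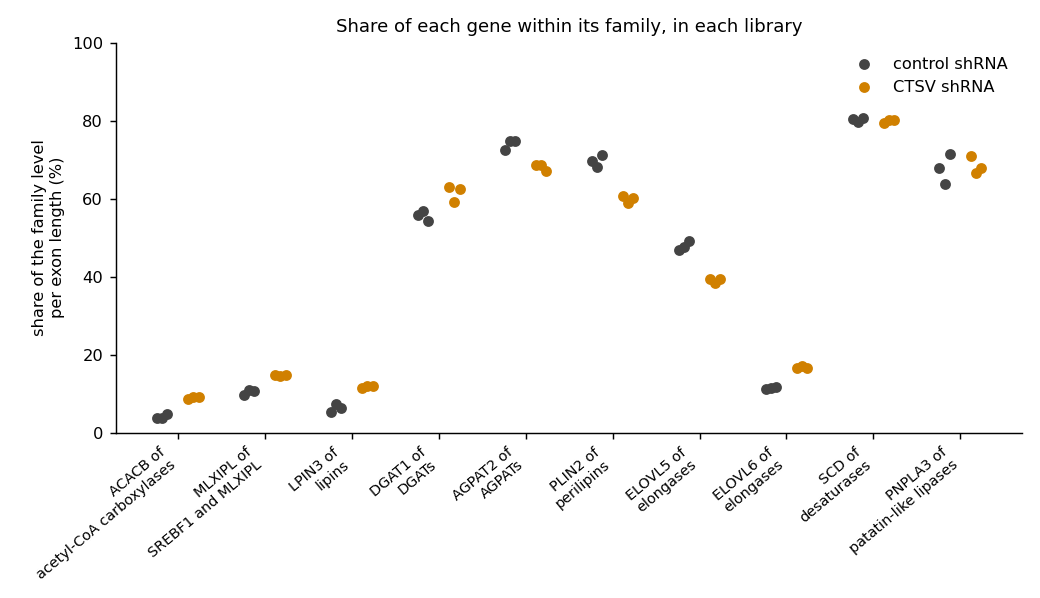
Share (%) of 10 genes in the level per exon length of their family, 1 dot per library, control shRNA in grey and CTSV shRNA in orange. Families hold the listed lipid genes only, so AGPAT5 is not counted. The groups are apart for 8 genes, among them ACACB at 3.76% to 4.77% and 8.53% to 9.21%, and overlap for SCD and PNPLA3.

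A further 64 genes of the same pathways were listed, and 59 had counts. Of 53 tested, 8 rose and 16 fell (45.3% called, against 40.3% of all genes tested), with a median log2 fold change of -0.05. Without control replicate 1 the rises numbered 4, and without control replicate 3 they numbered 5.

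Among 19 regulators of lipogenesis 3 rose and 5 fell, a called share of 42.1% that was near the 40.3% over all genes. It was below the 53.1% called among genes with a mean of 10 CPM or more. PRKAA2 and PRKAA1, the catalytic subunits of the energy sensor AMPK, had log2 fold changes of 0.48 (SE 0.0672, adjusted p = 3.01e-07) and 0.29 (SE 0.0455, adjusted p = 2.13e-06), which were 0.20 and 0.18 with length and GC offsets. PRKAA2 was at 61.6, 54.5 and 58.4 CPM in controls and 82.2, 77.3 and 84.3 CPM in knockdown libraries. MLX, the dimerisation partner of the MLXIPL product, fell by 0.41 (SE 0.0819, adjusted p = 9.62e-05), from 48.1 ± 0.967 to 36.2 ± 3.07 CPM, while MLXIPL rose. NR1H2, which encodes a liver X receptor, a sterol sensor known to induce SREBF1, fell by 0.50 (SE 0.086, adjusted p = 1.24e-05), from 47.4 ± 2.09 to 33.6 ± 3.70 CPM. NR1H3, which also encodes a liver X receptor, fell by 0.36 (SE 0.0963, adjusted p = 0.00286). Among SREBF2 and the listed genes that control the SREBF products, SCAP, their escort, rose (0.18, adjusted p = 0.0138). MBTPS2, a protease that cleaves these products, fell (-0.18, adjusted p = 0.0102). SREBF2 (-0.02, adjusted p = 0.702), INSIG1 (-0.02, adjusted p = 0.749), INSIG2 (0.09, adjusted p = 0.536) and MBTPS1 (-0.08, adjusted p = 0.225) were not called.

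Of the acyl-CoA synthetases listed, which activate fatty acids, ACSL1, ACSL3 and ACSL4 fell and ACSL5 rose. ACSL3, known for its part in droplet growth, was at 830.4, 814.2 and 832.5 CPM in controls and 529.5, 541.1 and 539.9 CPM in knockdown libraries, a log2 fold change of -0.62 (SE 0.0407, adjusted p = 6.36e-15). ACSL1 was at 45.0, 39.8 and 43.4 CPM against 21.3, 25.9 and 25.4 CPM (-0.82, SE 0.093, adjusted p = 4.49e-09). ACSL4 fell less (-0.16, adjusted p = 0.00287), and ACSL5 rose (0.70, adjusted p = 0.0312) from a low level of 2.83 ± 0.686 CPM to 4.6 ± 1.14 CPM. Of the 13 genes tested in the list that holds them, 4 rose and 5 fell (69.2% called, against 40.3% of all genes tested). ELOVL4, an elongase of very long chains, rose by 1.32 (adjusted p = 4.22e-05) from a low level of 2.56 ± 0.771 CPM. ELOVL3, named after its values were seen, fell (log2 fold change -1.98, SE 0.637, adjusted p = 0.0121) with 26, 26 and 11 counts in controls and 0, 6 and 10 in knockdown libraries. The citrate carrier SLC25A1 rose by 0.19 (adjusted p = 0.0123), a call lost with all deposited entries (adjusted p = 0.0542) and without control replicate 1 (0.0789), control replicate 3 (0.0732) or knockdown replicate 1 (0.0991).

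Among other acyltransferases, droplet proteins and lipases few genes were called, all of them falls. GPAT3, an acyltransferase of the endoplasmic reticulum, was at 17.0, 15.2 and 16.8 CPM in controls and 9.50, 6.73 and 7.76 CPM in knockdown libraries, a log2 fold change of -1.03 (SE 0.143, adjusted p = 2.76e-07). AGPAT5 fell by 0.31 (adjusted p = 0.000158). Of 4 assembly genes tested 2 fell (50%), and of 10 droplet proteins and lipases 3 fell (30%), against the 40.3% called over all genes. Those included the monoglyceride lipase MGLL (-0.20, adjusted p = 0.000952) and FITM2, which acts in droplet budding (-0.34, adjusted p = 0.00227). Among 7 genes of fatty acid uptake and binding (28.6% called), FABP1, the liver fatty acid binding protein, rose by 0.60 (SE 0.0635, adjusted p = 1.16e-09) from 86.1 ± 7.28 to 130.3 ± 9.64 CPM. SLC27A4, a fatty acid transport protein, fell by 0.39 (adjusted p = 0.00115).

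**Figure D5:**
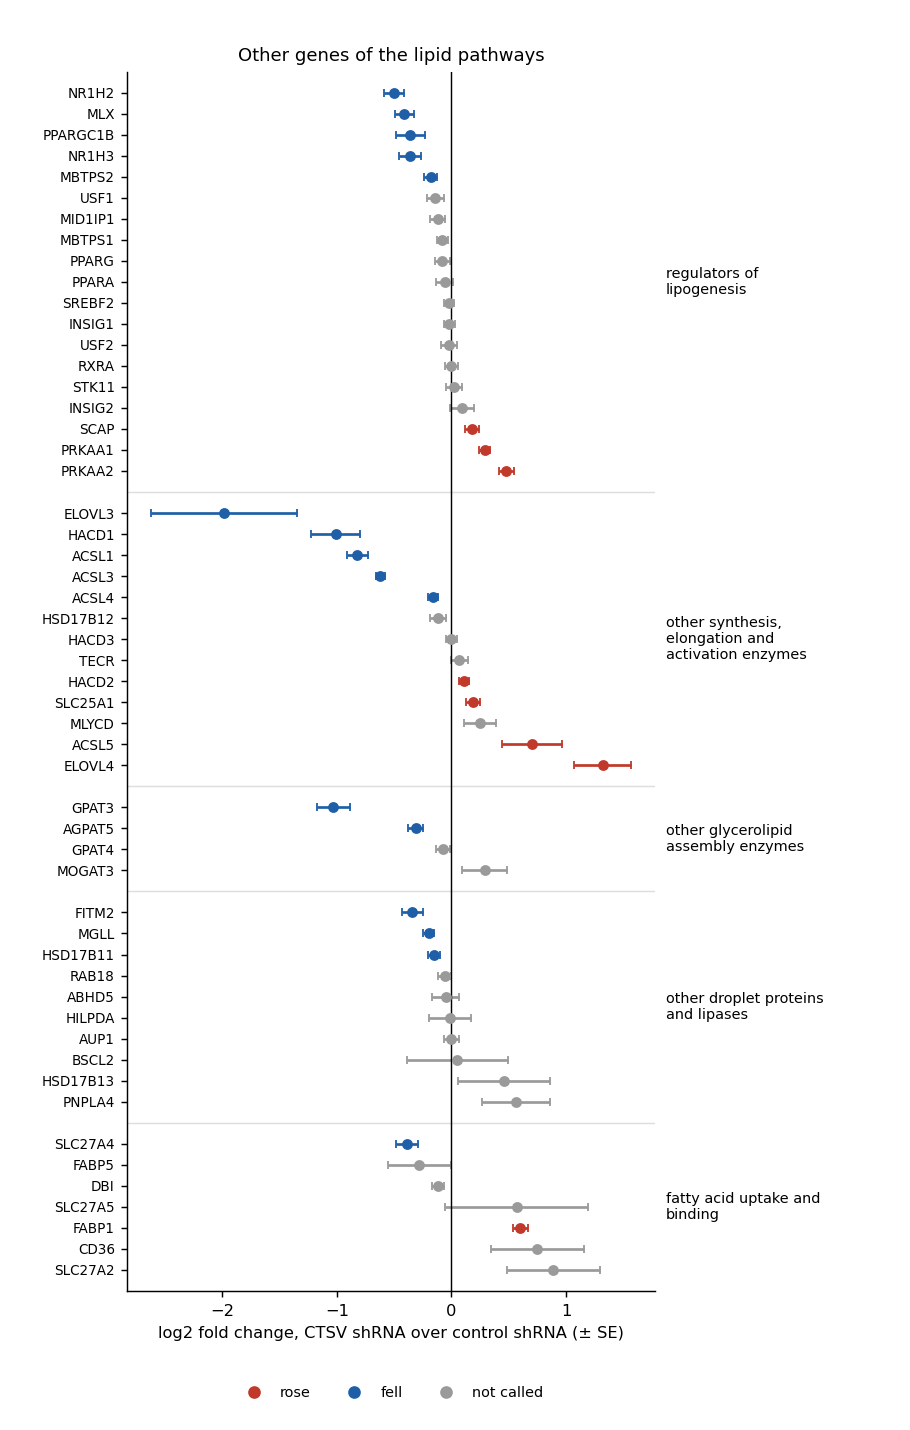
Log2 fold change (CTSV shRNA over control shRNA, horizontal axis) with SE of 53 further genes of the lipid pathways, grouped by role, with red points for rises, blue for falls and grey for genes not called. The points of ACSL3 (-0.62), ACSL1 (-0.82) and GPAT3 (-1.03) lie left of 0 and those of FABP1 (0.60) and PRKAA2 (0.48) right of it.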

How the data were processed

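RNA-seq libraries of Huh7 cells were analysed from 1 deposited table. Its read counts per gene are raw whole numbers made by the authors. HISAT2, StringTie, SAMtools and hg38 are named, with no role, in the submitters' processing notes, while versions, counting tool, annotation and use of strand are not given in the sources used. The log2 fold changes deposited by the authors are control over knockdown, the opposite of the sign used here. The p-values deposited by the authors come from a test that no source used here names.

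Copies of 127 names (1521 entries, identical counts) were removed. Groups were compared with edgeR 4.0.16 under R 4.3.3 (quasi-likelihood, TMM, filterByExpr, no covariate), with Benjamini-Hochberg adjustment over all 15968 genes tested and calls at an adjusted p under 0.05. Rises and falls are named for called genes alone. The common coefficient of variation that edgeR estimated between libraries, beyond counting error, was 6.87%. The precision of a single gene is given by its SE. The script was tested on simulated data. GENCODE v29 gave the merged exon lengths and the GC content, which was pooled over all transcripts of a gene. There 96.9% of matched identifiers had equal coordinates. Promoter windows came from RefSeq.

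Alternatives were RLE size factors, DESeq2 1.42.0, other filters, a replicate block, length and GC offsets (loess, span 0.5), all entries, and leaving out each library. Named genes followed a rule: library values for called members changed by at least 0.5 on the log2 scale and for FASN, SCD, ACACA, SREBF1, PLIN2 and DGAT2, and up to 2 called genes each way per further list. Library values of other members, and SREBF2, INSIG1, INSIG2, SCAP, MBTPS1, MBTPS2, NR1H3, ACSL4, ACSL5 and ELOVL3, were added after their values were seen. The members and lists were chosen with earlier results of these data known.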

Additional observations from a re-analysis of the deposited data

How the results depend on the processing

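Of 21 called lipid genes, 17 were called under all 14 alternatives, and ACACA, ELOVL1, ELOVL2 and LPIN2 were each lost under at least 1. CTSV had log2 fold changes from -1.40 to -1.30 with any library left out. Sign changes occurred only in genes that were not called. With length and GC offsets AGPAT3 was at -0.01 and LPIN1 at -0.04, and with these offsets and the replicate block at -0.02 and -0.04. PNPLA2 was at -0.01 with all deposited entries. With 1 library left out, DGAT2 ranged from -0.01 to 0.15, PLIN4 from -0.14 to 0.35 and PNPLA2 from -0.07 to 0.10. The number of further pathway genes that rose ranged from 4 to 8 with 1 library left out, against 8 with all. The cause of these shifts was not tested.

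The replicate numbers did not pair the libraries. Deviations of same-numbered libraries correlated at -0.0122, -0.00253 and 0.0212, and 2 of 6 libraries correlated best with their own number. With the replicate block 8 lipid genes rose and 13 fell, as without it, and over all genes 2996 rose and 3490 fell, against 2982 and 3451. In weakly expressed members such as PLIN4 and PLIN5 counting error limits what can be detected.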
